A study of Mus musculus with 6 samples.

Results

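The genes described are 31 genes of the hypoxia response and of glycolysis, taken from a list of glycolytic enzymes and hypoxia-inducible transcripts and matched to the array by the accession of each array element. They are 31 of 20659 genes with a named element. All 31 had at least 1 element, 54 in all, and 30 of them (53 elements) passed the filter on dim signals. The remaining gene, Mxi1, a MYC antagonist, was not well above background on any of the 6 arrays, at a mean log2 normalised signal of -7.88 ± 0.12 in control cells and -7.00 ± 0.24 in knockdown cells (SD, n = 3 each), and has no fold.

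The cells were C2C12, a line of mouse myoblasts that stop dividing and form multinucleate myotubes under differentiation conditions. The control group received a negative-control siRNA (si-NC, 3 arrays), and the other group received an siRNA that targets lncMGPF, a long noncoding RNA (si-lncMGPF, 3 arrays). Both groups were untreated otherwise, as far as the labels say, and were collected after 2 days of differentiation. No oxygen level is named in the labels. Each group is a single established line with 1 siRNA label, and no rescue group or second siRNA is named. Nothing in the labels says that the 3 replicates of a group came from separate cultures, so p-values measure the spread between these arrays, which may be technical. No element carried the name lncMGPF, and the knockdown itself could not be read here.

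Glycolysis converts glucose to pyruvate in the cytosol, and lactate dehydrogenase and the monocarboxylate transporters dispose of the product when it does not enter mitochondria. In normal oxygen, prolyl hydroxylases (the Egln genes) mark HIF alpha subunits for destruction. When oxygen is low, HIF accumulates, binds short DNA elements with the core letters ACGTG or GCGTG, and raises transcription of most glycolytic enzymes, of glucose and lactate carriers, of factors for vessel growth and mitophagy, and of its own inhibitors. Skeletal muscle relies on glycolysis during intense work, and myoblasts shift their balance of glycolysis and oxidative metabolism as they differentiate.

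Values are log2 normalised signals, that is, log2 of the scanner's processed intensity minus the array's 75th percentile, so that 0 is the 75th percentile of that array. Where a gene had several elements, the one with the highest mean signal stood for it. The 75th percentile was 492 to 931 intensity units. By their scan identifiers the arrays lay on a pair of slides: slide 1 held the control group and replicate 1 of si-lncMGPF, and slide 2 held the remaining replicates 2 and 3 of si-lncMGPF. The share of array elements well above background was 64.1% to 65.3% on slide 1, against 57.3% and 56.9% on slide 2. Before background removal, negative control spots read 29.2 to 30.6 intensity units on slide 1 and 44.7 and 49.6 on slide 2. After it, their means were -2.50 to 0.62 on slide 1 and -5.05 and -3.29 on slide 2. All 12 myoblast markers (such as Myog, Des and Myh3) were well above background on every array, with a summed linear level of 172 to 178 times the 75th percentile in si-NC and 154 to 173 in si-lncMGPF. Of the endothelial markers, Pecam1 and Kdr were above background on every array, and Cdh5 and Tie1 on no array. Pecam1 was higher in si-lncMGPF (log2 difference 0.665) and Kdr lower (-0.123). The summed level of that list was 1.25 to 1.64 in si-NC and 1.49 to 1.62 in si-lncMGPF. No epithelial or hepatocyte marker was above background on all arrays, and of the adipocyte markers Fabp4 alone was. The leukocyte markers summed to 1.09 to 1.43 in si-NC and 1.07 to 1.36 in si-lncMGPF, and the neuronal markers (mostly Tubb3) to 26.5 to 27.4 and 21.6 to 23.95; their part in the results was not tested. In bulk RNA, fewer cells of a type and less RNA per cell cannot be told apart.

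The comparison of si-lncMGPF with si-NC asks which transcripts differ after the knockdown. No member of the hypoxia and glycolysis group passed the test: 0 of 30 genes had an adjusted p below 0.05 (limma, Benjamini-Hochberg over 24661 elements), where 0.147% of all 14265 genes did. All 30 tested members had a positive log2 difference, against 54.0% of all genes, with a median of 0.30 and a range of 0.02 to 0.47. The median over all genes was 0.02. At an unadjusted p below 0.05, 9 of 30 members were higher in si-lncMGPF, against 6.04% of all genes. The groups did not overlap for 8 of 30 members, each higher in si-lncMGPF, against 9.7% of all genes. The members were chosen with earlier results of these data known, so these shares are not independent of the data. By brightest elements, the largest differences belonged to Ankrd37 (log2 difference 0.47), Pgk1 (0.45) and Pkm (0.44), and the lowest adjusted p of any member was 0.206. Dimmer elements of some members had a larger difference or a lower adjusted p, such as one of Bnip3 (0.55, adjusted p = 0.14, limma), but none passed.

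The size of this difference was not the same for the slide 1 and the slide 2 si-lncMGPF arrays. Slide 1 held a single si-lncMGPF array and slide 2 held no si-NC array. A slide effect and a difference of replicate 1 itself therefore cannot be told apart. The slide 1 si-lncMGPF array had a median member difference of 0.05 from the si-NC mean, with 20 of 30 members positive, while the slide 2 arrays had 0.38, with 28 positive. Over all genes the same medians were -0.07 and 0.06. Array by array, the median of the members against the si-NC mean was -0.02, 0.02 and 0.01 for replicates 1, 2 and 3 of si-NC. For replicates 1, 2 and 3 of si-lncMGPF it was 0.05, 0.42 and 0.36. Thus 2 of the 3 si-lncMGPF arrays were clearly high and the third lay near the controls. The slide 1 si-lncMGPF array was above all si-NC arrays for 13 of 30 members (29.1% of all genes) and below all of them for 7 (49.5% of all genes). Both slide 2 arrays were above all si-NC arrays for 24 of 30 members (34.1% of all genes). The fit with slide as a block rests on that 1 slide 1 array and gives the same median of 0.05. With si-lncMGPF replicate 1 left out, 16 of 30 members passed the threshold, all higher (7.37% of all genes passed as higher), but group and slide then coincide and cannot be told apart.

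**Figure D1:**
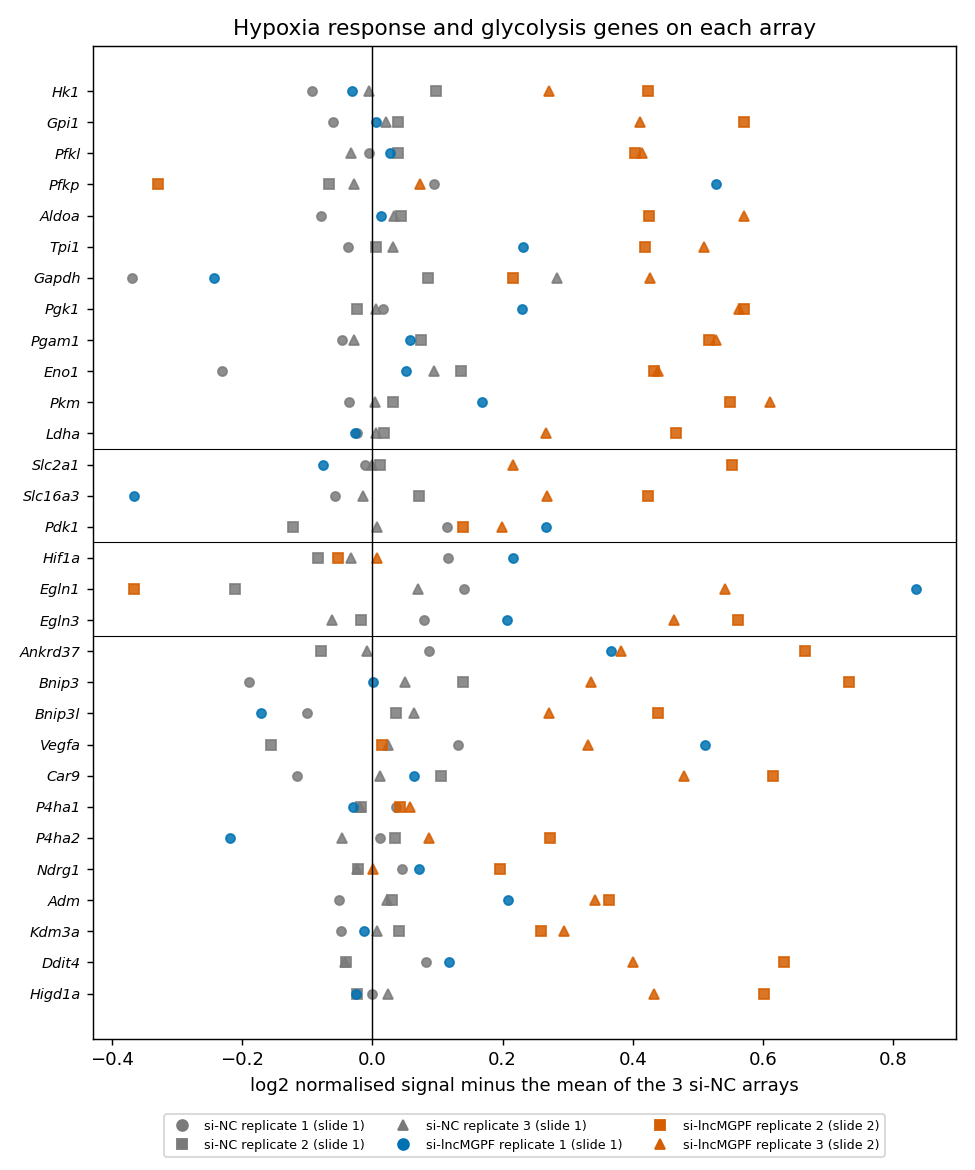
Log2 normalised signal of each tested member minus the mean of its 3 si-NC values (x axis), 1 row per gene in the order glycolytic enzymes, transport and pyruvate use, oxygen sensing and HIF targets, with 1 point per array. Most slide 2 points (orange) lie to the right of the grey si-NC points, while the slide 1 si-lncMGPF point (blue) is above all 3 grey points for 13 of 30 genes.

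Because the members are abundant transcripts, they were set beside genes of like signal. The 1427 brightest of all 14265 genes held 17 of the 30 members, and their median difference was -0.13 on the slide 1 si-lncMGPF array and 0.17 on the slide 2 arrays. Genes were split into 10 equal bins by signal. Taken relative to the median of all genes in the same bin, the members had a median of 0.15 on slide 1 (26 of 30 positive) and 0.24 on slide 2 (27 of 30 positive), and 0.26 over all arrays. The members thus lay above genes of their brightness on both slides, by a smaller margin on slide 2 than the plain difference shows and by a larger one on slide 1. Among the 2853 brightest genes, both slide 2 arrays were above all si-NC arrays for 16 of 19 members, against 55.9% of all genes there, and the groups did not overlap for 4 of 19, against 8.24%. Leaving out si-lncMGPF replicate 1, 10 of those 19 members passed as higher, against 12.6% of the 2853 genes. Signal varies widely even within the top bin, so the 285 brightest genes were also read, a choice made after the values were seen. There both slide 2 arrays were above all si-NC arrays for 7 of 8 members, against 67.4% of the 285 genes. The median there was 0.01 for the members and -0.10 for all genes on slide 1, and 0.46 and 0.26 on slide 2.

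**Figure D2:**
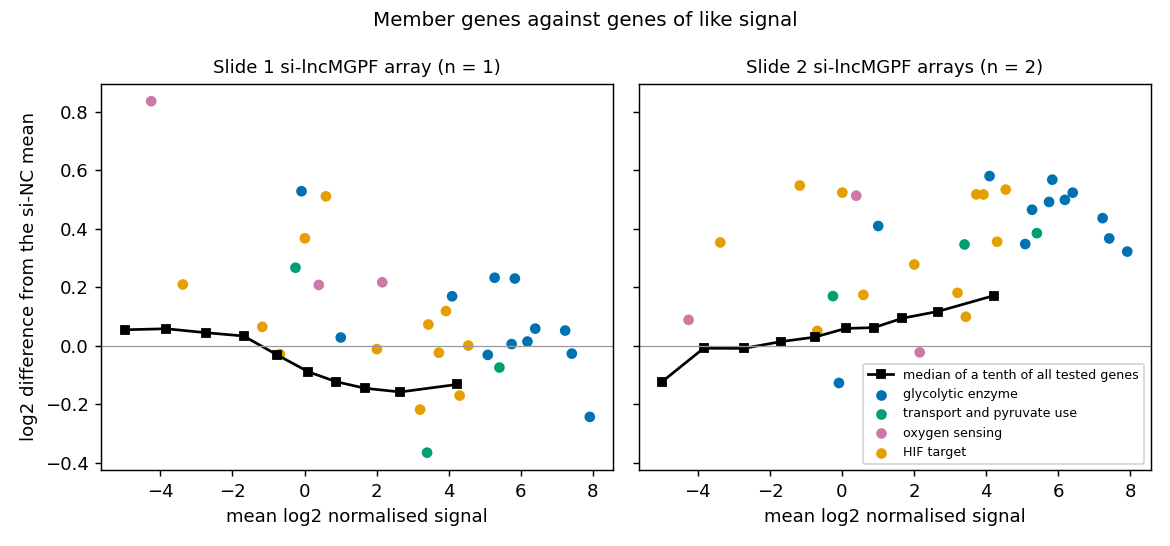
Log2 difference from the si-NC mean (y axis) against mean log2 normalised signal (x axis) for each tested member, coloured by role, for the slide 1 si-lncMGPF array (left) and the mean of the slide 2 si-lncMGPF arrays (right). The black line joins the medians of 10 equal bins of all tested genes, which run from 0.05 down to -0.13 on slide 1 and from -0.12 up to 0.17 on slide 2, and most members lie above it in both panels.

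Promoter windows are shown for some of the members, since HIF binds short DNA elements. Whether HIF had a part in the members' differences was not tested. RefSeq windows (GRCm38.p6, 250 bases before to 50 after an annotated start, given 5′ to 3′ on the gene's strand) were found for 29 of 31 members, 42 windows in all, some of them overlapping. Capitals mark every match to the cores ACGTG or GCGTG on either strand, so that their complements CACGT and CACGC are in capitals too and the palindrome CACGTG counts once on each strand. Pgk1, Ankrd37 and Egln3 were among the members with the smallest p, Ldha and Bnip3 are among those with the most matches, and Tpi1 also had a small p but neither core.

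Pgk1, chrX:106186850-106187149 (+ strand): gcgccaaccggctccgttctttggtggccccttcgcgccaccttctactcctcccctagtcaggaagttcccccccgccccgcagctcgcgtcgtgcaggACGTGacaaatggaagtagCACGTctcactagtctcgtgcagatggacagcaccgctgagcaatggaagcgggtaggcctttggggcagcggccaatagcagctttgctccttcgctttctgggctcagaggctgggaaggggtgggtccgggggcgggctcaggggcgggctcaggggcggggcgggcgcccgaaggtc
Ankrd37, chr8:45999801-46000100 (- strand): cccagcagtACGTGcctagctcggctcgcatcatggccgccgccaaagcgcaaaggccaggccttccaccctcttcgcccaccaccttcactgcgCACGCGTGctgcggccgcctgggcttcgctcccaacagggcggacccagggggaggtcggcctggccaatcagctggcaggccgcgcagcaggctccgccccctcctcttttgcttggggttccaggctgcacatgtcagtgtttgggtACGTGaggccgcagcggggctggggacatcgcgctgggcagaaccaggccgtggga
Egln3, chr12:54203825-54204124 (- strand): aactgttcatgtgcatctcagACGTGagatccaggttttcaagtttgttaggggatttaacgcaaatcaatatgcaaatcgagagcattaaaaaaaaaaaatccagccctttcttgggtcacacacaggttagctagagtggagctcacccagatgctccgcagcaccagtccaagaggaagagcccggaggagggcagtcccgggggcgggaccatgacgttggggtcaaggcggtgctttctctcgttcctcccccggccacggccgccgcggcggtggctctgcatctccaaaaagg
Ldha, chr7:46845554-46845853 (+ strand): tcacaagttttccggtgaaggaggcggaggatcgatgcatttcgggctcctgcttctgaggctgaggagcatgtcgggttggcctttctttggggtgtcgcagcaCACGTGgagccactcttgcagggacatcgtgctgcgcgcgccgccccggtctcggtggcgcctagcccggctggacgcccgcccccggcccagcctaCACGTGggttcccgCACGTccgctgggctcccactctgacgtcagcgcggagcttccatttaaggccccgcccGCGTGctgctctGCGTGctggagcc
Bnip3, chr7:138909457-138909756 (- strand): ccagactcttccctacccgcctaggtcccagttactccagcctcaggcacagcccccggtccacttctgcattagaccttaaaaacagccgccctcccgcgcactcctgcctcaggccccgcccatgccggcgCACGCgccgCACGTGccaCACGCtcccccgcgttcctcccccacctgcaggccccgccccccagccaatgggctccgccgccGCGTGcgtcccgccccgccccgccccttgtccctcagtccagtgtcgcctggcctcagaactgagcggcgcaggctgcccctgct
Tpi1, chr6:124814109-124814408 (- strand): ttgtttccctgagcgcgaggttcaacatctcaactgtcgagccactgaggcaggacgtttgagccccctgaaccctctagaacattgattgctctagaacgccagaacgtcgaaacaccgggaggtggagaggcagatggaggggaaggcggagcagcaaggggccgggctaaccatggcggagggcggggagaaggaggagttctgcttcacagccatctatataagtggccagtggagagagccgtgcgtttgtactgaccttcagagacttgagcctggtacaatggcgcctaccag

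The core ACGTG stood in 23 of the 42 member windows (54.8%), against 19.6% of all 32851 windows of the table. GCGTG stood in 22 (52.4%), against 32.4%, and either core in 32 (76.2%), against 43.8%. Member windows are rich in CpG, with a median of 23 CpG dinucleotides against 7, and both cores contain a CpG. Among the windows with a CpG count of at least the members' lower quartile, the shares were 28.5% for ACGTG, 61.1% for GCGTG and 71.8% for either, so the members stood above that set for ACGTG and not for GCGTG. These are counts of letters in a fixed window, with no test and no measurement of binding. The list itself names hypoxia-inducible transcripts, so the share of the core is not independent of how the list was drawn up. The 20 tested members with ACGTG in a window had a median log2 difference of 0.34, and the 8 without it 0.29. On slide 1 those medians were 0.04 and 0.13, and on slide 2 they were 0.44 and 0.38. The core did not separate the members by their difference.

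Among the glycolytic enzymes, all 12 had a positive log2 difference, with a median of 0.32 over all arrays, 0.04 on slide 1 and 0.45 on slide 2. None passed the threshold. Groups did not overlap for Tpi1, Pgk1 and Pkm. Pgk1, phosphoglycerate kinase, which makes the first ATP of the pathway and whose window holds ACGTG on both strands, read 5.63, 5.59 and 5.62 on the si-NC arrays and 5.84, 6.18 and 6.17 on the si-lncMGPF arrays. All 3 si-lncMGPF arrays were above the highest control, with replicate 1 nearest to it. The log2 difference was 0.45 (SE 0.12, 1.37-fold, adjusted p = 0.214, limma), with 0.23 on slide 1 and 0.57 on slide 2.

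Pkm, pyruvate kinase of muscle, which makes pyruvate and the last ATP of the pathway, read 3.84, 3.91 and 3.88 in si-NC and 4.04, 4.42 and 4.49 in si-lncMGPF. The groups did not overlap, and replicate 1 was again the lowest of its group. The log2 difference was 0.44 (SE 0.13, 1.36-fold, adjusted p = 0.236, limma). Tpi1, triosephosphate isomerase, read 5.05, 5.09 and 5.12 in si-NC and 5.32, 5.50 and 5.59 in si-lncMGPF. The si-NC arrays lay close together and all si-lncMGPF arrays above them, a difference of 0.39 (SE 0.10, adjusted p = 0.217, limma).

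Pgam1, phosphoglycerate mutase, read 6.17, 6.30 and 6.19 in si-NC and 6.28, 6.74 and 6.75 in si-lncMGPF. Here replicate 1 lay inside the control range and the slide 2 arrays stood well above it, for a difference of 0.37 (SE 0.15, adjusted p = 0.295, limma). Aldoa, the muscle aldolase, read 5.94, 6.07 and 6.05 in si-NC and 6.03, 6.45 and 6.59 in si-lncMGPF, with a difference of 0.34 (SE 0.15, adjusted p = 0.341, limma). Gpi1, glucose-6-phosphate isomerase, read 5.52, 5.62 and 5.61 in si-NC and 5.59, 6.16 and 5.997 in si-lncMGPF, with a difference of 0.33 (SE 0.15, adjusted p = 0.348, limma). The other Gpi1 elements, of like signal, gave 0.26 and 0.25, with replicate 1 below all controls (-0.08 and -0.06 on slide 1). On the brightest elements, Aldoa and Gpi1 both had replicate 1 among the controls (slide 1 differences of 0.01 for each) and the slide 2 arrays apart from them. Pfkl, a subunit of phosphofructokinase, the committed step, read 0.86, 0.91 and 0.83 in si-NC and 0.89, 1.27 and 1.28 in si-lncMGPF. That is the same layout at a lower signal, with 0.03 on slide 1 and 0.41 on slide 2 (difference 0.28, SE 0.13, adjusted p = 0.333, limma).

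Gapdh, the dehydrogenase often used as a loading control, had the most variable controls of the enzymes: it read 7.48, 7.94 and 8.14 in si-NC and 7.61, 8.07 and 8.28 in si-lncMGPF. The groups overlapped throughout, with a difference of 0.13 (SE 0.23, 95% interval -0.41 to 0.68), -0.24 on slide 1 and 0.32 on slide 2. Its sign turned with quantile normalization (-0.12) and after normexp background correction (-0.05). The other 6 Gapdh elements had differences of 0.09, 0.36, 0.34, 0.11, 0.12 and 0.26 from the brightest to the dimmest, and those at 0.36, 0.34 and 0.26 had groups that did not overlap. Eno1, an enolase, had means of 7.08 ± 0.20 in si-NC and 7.39 ± 0.22 in si-lncMGPF (SD, n = 3 each), a difference of 0.31. Hk1, the hexokinase that traps glucose in the cell, had means of 4.98 ± 0.10 and 5.20 ± 0.23, a difference of 0.22. Both had slide 1 values near the controls, 0.05 for Eno1 and -0.03 for Hk1.

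Ldha, the lactate dehydrogenase subunit that favours lactate production, had means of 7.30 ± 0.02 and 7.54 ± 0.25, a difference of 0.24 (-0.03 on slide 1, 0.37 on slide 2). A dimmer Ldha element read 2.60, 2.21 and 2.39 in si-NC and 3.25, 2.62 and 2.99 in si-lncMGPF, with no overlap, a difference of 0.55 (SE 0.18, adjusted p = 0.253, limma) and 0.85 on slide 1. The dimmest Ldha element gave 0.26. The elements of Ldha thus placed the slide 1 array either level with the controls or as the highest of all. Pfkp, the platelet-type phosphofructokinase subunit, had means of -0.13 ± 0.08 and -0.04 ± 0.43, a difference of 0.09, with 0.53 on slide 1 and -0.13 on slide 2, and another element gave -0.03. That other element had the signs reversed, with -0.28 on slide 1 and 0.09 on slide 2. By brightest elements, Pfkp is the only glycolytic member with a negative slide 2 difference, and replicate 3 lay inside the control range there. Gapdh, Pgk1, Ldha, Pgam1 and Eno1 have near-identical copies elsewhere in the mouse genome, so part of their signal may belong to those copies.

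Transport and pyruvate use was covered by 3 members, with a median of 0.20 over all arrays, -0.08 on slide 1 and 0.35 on slide 2. Slc2a1, the glucose transporter GLUT1, read 5.28, 5.31 and 5.29 in si-NC and 5.22, 5.85 and 5.51 in si-lncMGPF. The si-lncMGPF arrays lay on both sides of the controls, with replicate 1 below all of them. The difference was 0.23 (SE 0.16, 95% interval -0.15 to 0.61), and it was -0.08 on slide 1 and 0.38 on slide 2. Slc16a3, the lactate exporter MCT4, had means of 3.35 ± 0.07 and 3.46 ± 0.42, a difference of 0.11, with -0.37 on slide 1 and 0.35 on slide 2. Both its elements had this split. Pdk1, the kinase that closes pyruvate dehydrogenase and so keeps pyruvate out of mitochondria, had means of -0.35 ± 0.12 and -0.15 ± 0.06, a difference of 0.20, and its groups did not overlap. It is the member of this role with a positive value on both slides, 0.27 and 0.17.

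Oxygen sensing was covered by Hif1a and 2 of its hydroxylases. Hif1a, the oxygen-labile subunit of HIF, which is controlled mostly at the protein level, read 2.25, 2.05 and 2.10 in si-NC and 2.35, 2.08 and 2.14 in si-lncMGPF. The groups overlapped, with a difference of 0.06 (SE 0.11, 95% interval -0.21 to 0.32), 0.22 on slide 1 and -0.02 on slide 2. Egln3, a hydroxylase that HIF induces, read 0.27, 0.17 and 0.13 in si-NC and 0.40, 0.75 and 0.66 in si-lncMGPF. All si-lncMGPF arrays were above the controls, for a difference of 0.41 (SE 0.12, 1.33-fold, adjusted p = 0.228, limma), and a dimmer element gave 0.46 with no overlap (adjusted p = 0.199, limma). Egln1, the main oxygen sensor, was dim and above background on 5 of 6 arrays, with means of -4.42 ± 0.19 and -4.09 ± 0.63. Its difference of 0.34 had a 95% interval of -0.38 to 1.06, and the si-lncMGPF arrays lay on both sides of the controls.

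Among the HIF targets, 12 of 13 were tested, all with a positive difference, a median of 0.30 over all arrays, 0.03 on slide 1 and 0.35 on slide 2. Ankrd37, an ankyrin repeat protein strongly induced by HIF, read -0.14, -0.30 and -0.23 in si-NC and 0.14, 0.44 and 0.16 in si-lncMGPF. The groups did not overlap, and replicate 1 lay level with replicate 3 of its group. The log2 difference was 0.47 (SE 0.11, 1.39-fold, adjusted p = 0.206, limma), with 0.37 on slide 1 and 0.52 on slide 2. Its window, shown above, holds both cores.

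Adm, adrenomedullin, a vessel-dilating peptide, was dim but above background on all arrays and read -3.58, -3.50 and -3.51 in si-NC and -3.32, -3.17 and -3.19 in si-lncMGPF. The groups did not overlap, for a difference of 0.30 (SE 0.09, adjusted p = 0.229, limma), with 0.21 on slide 1. Ddit4, REDD1, an inhibitor of mTORC1 signalling, read 3.82, 3.69 and 3.69 in si-NC and 3.85, 4.37 and 4.14 in si-lncMGPF. Replicate 1 was above the highest control by a small margin, and the difference was 0.38 (SE 0.14, adjusted p = 0.276, limma). Car9, a carbonic anhydrase of the cell surface that buffers acid, read -1.48, -1.26 and -1.35 in si-NC and -1.30, -0.75 and -0.89 in si-lncMGPF. Replicate 1 lay inside the control range, and the difference was 0.39 (SE 0.16, adjusted p = 0.308, limma).

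Vegfa, the main growth factor for vessels, had the opposite layout: it read 0.58, 0.30 and 0.48 in si-NC and 0.96, 0.47 and 0.78 in si-lncMGPF. Replicate 1 was the highest of all arrays and replicate 2 lay among the controls, giving 0.51 on slide 1, 0.17 on slide 2 and 0.29 over all (SE 0.15, adjusted p = 0.39, limma). Bnip3 and Bnip3l, receptors that mark mitochondria for removal, differed from each other. Bnip3 had means of 4.37 ± 0.17 and 4.72 ± 0.37, a difference of 0.36, with 0.00 on slide 1 and 0.53 on slide 2. Its dimmest element read -2.30, -2.54 and -2.43 in si-NC and -1.89, -1.90 and -1.84 in si-lncMGPF, with 0.53 on slide 1 and 0.55 on slide 2. On that element all 3 si-lncMGPF arrays lay close together above the controls (difference 0.55, SE 0.10, 1.46-fold, adjusted p = 0.14, limma). The third Bnip3 element gave 0.47, also with no overlap. Bnip3l had a difference of 0.18 on its brightest element and 0.12, 0.03 and 0.03 on the others, and all 4 elements were negative on slide 1.

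The other HIF targets had smaller or slide 2 differences. Higd1a, a protein of the inner mitochondrial membrane, had means of 3.56 ± 0.02 and 3.90 ± 0.32 (difference 0.34, -0.02 on slide 1 and 0.52 on slide 2), and its dimmer element also gave 0.34 with no overlap. Kdm3a, a histone demethylase, had means of 1.92 ± 0.05 and 2.10 ± 0.17, a difference of 0.18. Ndrg1, a stress-response protein, had means of 3.39 ± 0.04 and 3.48 ± 0.10, a difference of 0.09. The collagen prolyl hydroxylase subunits P4ha1 (-0.70 ± 0.03 and -0.67 ± 0.05) and P4ha2 (3.18 ± 0.04 and 3.23 ± 0.25) had differences of 0.02 and 0.05, and another P4ha1 element gave -0.13. For P4ha1 the 95% interval was -0.17 to 0.22. The intervals of Pgk1 (0.175 to 0.734) and Ankrd37 (0.199 to 0.743) overlapped it, and no contrast between genes was fitted.

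**Figure D3:**
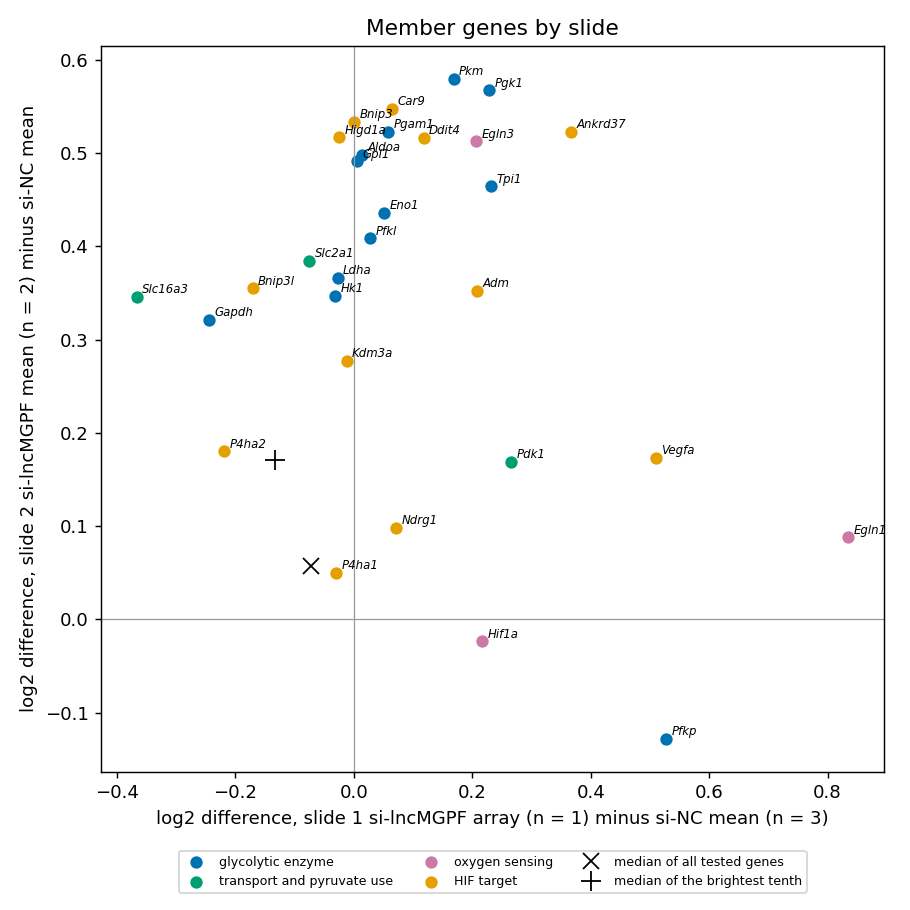
Log2 difference of each tested member on the slide 1 si-lncMGPF array (x axis, 1 array) against the slide 2 si-lncMGPF arrays (y axis, mean of 2 arrays), both minus the same mean of 3 si-NC arrays, so that the axes share their controls. Ankrd37, Pgk1, Tpi1, Egln3, Pkm and Adm lie above 0 on both axes, a group with Gapdh, Slc16a3, Bnip3l and P4ha2 is negative on the x axis alone, and Pfkp and Hif1a are negative on the y axis alone.

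The 13 members with several tested elements allow the 2 slides to be compared within a gene. On slide 1 the dimmest element read a higher difference than the brightest for 10 of 13 members, with medians of 0.15 for the dimmest and -0.02 for the brightest. On slide 2 it did so for 2 of 13, with medians of 0.30 and 0.36. The same direction was present over all 3561 genes with several tested elements, where the dimmest was higher for 70.8% on slide 1 and 43.6% on slide 2. The median of dimmest minus brightest was 0.15 for the members and 0.17 for all genes on slide 1, and -0.07 and -0.05 on slide 2. The difference that the slide 1 array showed therefore moved with the brightness of the element, in the members as in other genes, and the part of this in the members' values was not tested.

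**Figure D4:**
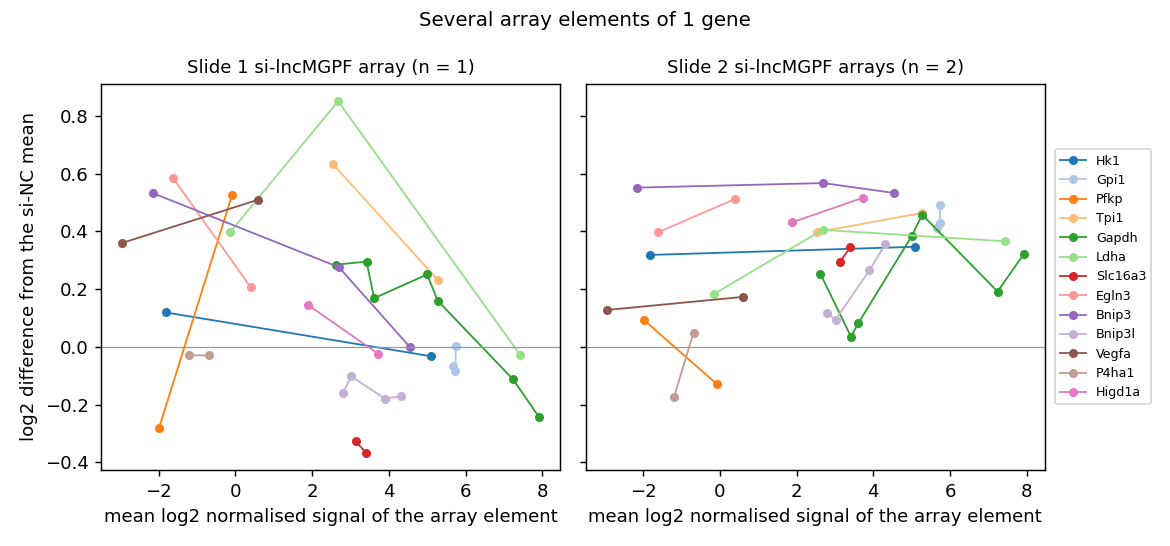
Log2 difference from the si-NC mean (y axis) against the mean log2 normalised signal of the array element (x axis) for the 13 members with several tested elements, with lines joining elements of 1 gene, on slide 1 (left) and slide 2 (right). On slide 1 most lines descend to the right, so the brightest element has the lower difference in 10 of 13 genes, and on slide 2 it has the higher one in 11 of 13.

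Other genes of the same pathways were read from whole lists, drawn up with earlier results on the members known and not picked by how each gene moved. None of their members passed the threshold. At an unadjusted p below 0.05, which 6.04% of all genes met as higher and 8.14% as lower, 1 gene of glycolysis was higher, 1 gene of transport and pyruvate use was higher and 2 lower, and 1 gene of oxygen sensing was lower. In the same count 9 other HIF targets were higher, and 6 genes of the tricarboxylic acid cycle were higher and 1 lower. Over all genes the groups did not overlap for 9.7% as higher and 12.7% as lower. Of 18 tested genes of glycolysis and gluconeogenesis outside the group, 12 were positive, with a median of 0.04 (-0.08 on slide 1, 0.12 on slide 2) with 1 gene higher without overlap, Bpgm (0.28), which makes 2,3-bisphosphoglycerate, and 1 lower, Ldhb (-0.13), the heart-type lactate dehydrogenase subunit. Hk2, the inducible hexokinase of muscle, had 0.09, the muscle phosphofructokinase Pfkm 0.08 and the muscle enolase Eno3 0.04. Of 13 genes of transport and pyruvate use, 8 were positive, with a median of 0.04, and 5 were lower without overlap. The largest of these was Slc16a7, the monocarboxylate transporter MCT2, which read 0.33, -0.03 and 0.23 in si-NC and -0.29, -1.70 and -2.78 in si-lncMGPF. Its difference was -1.77 (SE 0.57, adjusted p = 0.247, limma), with -0.47 on slide 1 and -2.42 on slide 2. The others were the muscle glucose transporter Slc2a4 (-0.25), the pyruvate dehydrogenase component Pdhx (-0.24), the pyruvate carrier subunit Mpc2 (-0.21) and the kinase Pdk2 (-0.14). No gene of this list was higher without overlap. The 1 gene higher at an unadjusted p below 0.05 (limma) was Pdk3 (0.31, with 0.34 on slide 1 and 0.295 on slide 2). Pdha1 had the largest positive difference (0.41), and its groups overlapped. Of 12 genes of oxygen sensing, 3 were positive, with a median of -0.06. The 1 gene without overlap, Hif3a, another HIF alpha subunit, read -2.09, -2.80 and -2.84 in si-NC and -3.24, -4.52 and -4.45 in si-lncMGPF, where replicate 3 was not well above background. Hif3a therefore met the filter through the si-NC group, where it is high. Its slide 2 arrays read 25.2 and 22.5 intensity units, so its si-lncMGPF level is poorly measured. The fitted difference was -1.50 (SE 0.38, adjusted p = 0.214, limma), with -0.66 on slide 1 and -1.91 on slide 2. Crebbp, a coactivator of HIF, had -0.44, with -0.05 on slide 1 and -0.64 on slide 2. Arnt, the stable partner of HIF alpha subunits, had -0.08, Epas1, which encodes HIF-2 alpha, -0.01, and Vhl, which carries HIF to destruction, 0.00.

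Of 37 other HIF targets, 24 were positive, with a median of 0.13 (0.03 on slide 1, 0.22 on slide 2) with 9 higher without overlap (9.7% of all genes) and 5 lower (12.7% of all genes). The 5 were Stc2, Cxcr4, Zfp395, Rora and Kdm4c, with differences of -0.22 to -0.07. Stc1, stanniocalcin, a secreted calcium regulator, read -4.99, -5.43 and -5.57 in si-NC and -3.53, -4.20 and -3.53 in si-lncMGPF. It was among the dimmest genes tested. Its element was not well above background on si-NC replicate 3 and read 15.9 intensity units on si-NC replicate 2, so it met the filter through the si-lncMGPF group and its control level is poorly measured. The fitted difference was 1.58 (SE 0.23, adjusted p = 0.12, limma), with 1.80 on slide 1. Igfbp3, a binding protein of insulin-like growth factors, read -4.15, -4.33 and -4.28 in si-NC and -2.63, -3.42 and -2.56 in si-lncMGPF, with a difference of 1.39 (SE 0.23, adjusted p = 0.131, limma). Both were as high on the slide 1 array as on slide 2. Car12, another carbonic anhydrase (0.55), Flt1, a VEGF receptor (0.62), and Gbe1, a glycogen branching enzyme (0.54), also had no overlap. Stc2 (-0.22) and Loxl2 (-0.01), likewise HIF targets, had negative differences.

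The tricarboxylic acid cycle, which oxidises the products of pyruvate in mitochondria and is not a part of the hypoxia response, had 16 of 19 genes positive, with a median of 0.21 (0.05 on slide 1, 0.31 on slide 2). Of the 19, 10 were higher without overlap, against 9.7% of all genes and 8.24% of the 2853 brightest, which hold 14 of the 19. Idh3a, a subunit of isocitrate dehydrogenase, read 0.93, 0.70 and 0.79 in si-NC and 1.36, 1.17 and 1.37 in si-lncMGPF, a difference of 0.49 (SE 0.11, adjusted p = 0.187, limma) with 0.56 on slide 1. Pcx, pyruvate carboxylase, which refills the cycle, was the 1 gene lower without overlap (-0.40). Genes of this list thus shared the positive direction of the glycolytic group, and no test compared the lists.

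**Figure D5:**
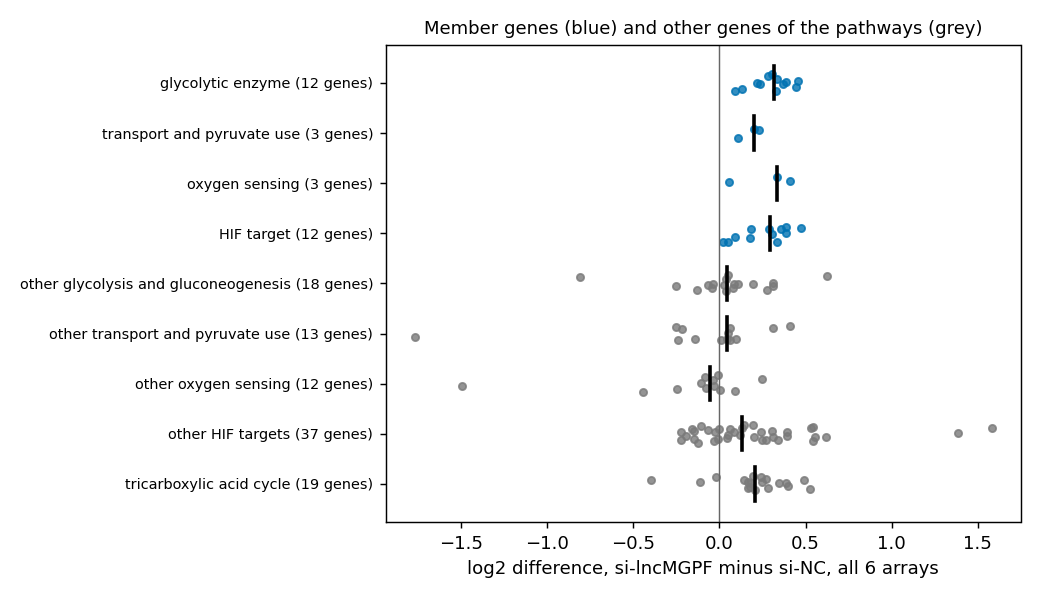
Log2 difference, si-lncMGPF minus si-NC over all 6 arrays (x axis), of each tested member by role (blue) and of other genes of the pathways (grey), with 1 point per gene and a black bar at the median. The member medians lie between 0.20 and 0.34 and those of the other lists between -0.06 and 0.21, with the tricarboxylic acid cycle list the highest of the grey groups.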

How the data were processed

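Total RNA of 6 C2C12 samples carrying the dye Cy3 was read on 1-colour arrays of Agilent's mouse design, per the labels. The deposited scanner tables hold linear intensity values, from which Feature Extraction 11.0.1.1 had removed background and a spatial trend, as the file headers show. The series table of the authors repeats those intensities at 44397 of 44397 spots on each array. Which tests the authors ran is not given in the sources used here.

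Control spots and outlier-flagged spots (117 to 134 per array) were left out, and 0 spots were saturated. Processed signals were taken to log2, averaged over spots of an element and centred on the 75th percentile of the array, so a global shift would be hidden. Elements well above background on all arrays of si-NC, of si-lncMGPF or of both were tested (24661 elements, 14265 named genes). The comparison used lmFit and eBayes of limma 3.58.1 (R 4.3.3) without covariates. P-values were adjusted by Benjamini-Hochberg over all tested elements, at a threshold of 0.05. Folds are linear ratios from the fitted log2 values. The fit was tested on simulated data with independent noise on each array and no slide effect, so that test says nothing about the slides.

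Accessions were matched, without versions, to a RefSeq gene table (GRCm38.p6) for names only, which named 27234 of 39429 elements. Promoter windows came from RefSeq at the same build. Groups follow the siRNA named for each sample, and slides the scan identifier. With 3 arrays a group, precision is limited by array number. All members were named. Values on every array are given for the 12 with the smallest p and for Hif1a, Gapdh, Vegfa, Pkm and Slc2a1. Other elements of a member are given where they differed in sign or by over 1.5 times, and in further cases for completeness. The members and the lists were chosen with earlier results of these data known. Alternatives were other scalings, background correction, filters, moderation, blocks and values, the mean of a gene's elements, and leaving out each array.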

Additional observations from a re-analysis of the deposited data

How the results depend on the processing

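Over all tested elements limma called 26, against 0 with no filter on dim elements (5277 at an unadjusted p below 0.05), 6 with quantile normalization, 10 with slide as a block and 0 with the replicate number as a replicate block (4430 at an unadjusted p below 0.05). Same-numbered arrays had deviations correlated at 0.29, 0.45 and -0.07, which does not settle whether the number pairs them. Leaving out 1 array gave 0 to 4105 calls: 4105 without si-lncMGPF replicate 1, 4 without si-lncMGPF replicate 2, and 0 without any other (1877 to 2696 at an unadjusted p below 0.05). The count of members past the threshold was 0 under every other setting and 0 to 16 when 1 array was left out, with 16 without si-lncMGPF replicate 1 alone. The member median of 0.30 was 0.055 with slide as a block and on slide 1 arrays alone, and 0.12 with slide as a random block, an alternative chosen after the data were seen, as were the slide 2 arrays alone and the dimmest or all elements. Under the remaining settings it was 0.21 to 0.38. Gapdh turned to -0.048 after normexp, -0.12 with quantile normalization, -0.24 with slide as a block and on slide 1 arrays alone, -0.13 with slide as a random block, and ranged from -0.051 to 0.32 with 1 array left out. Slc2a1 turned to -0.075 with slide as a block and on slide 1 alone. Hif1a turned to -0.023 on the slide 2 arrays and ranged from -0.023 to 0.11 with 1 array left out. Of the values with an adjusted p for members named with every array, 252 kept direction and side of the threshold, 12 passed it and 8 changed sign. That count ignores how far a value moved. It also includes the authors' series values, which equal the main input and could not differ. Of the values with no test (si-lncMGPF arrays of 1 slide alone), 16 moved by less than the spread between arrays, 13 by more and 3 changed sign. All 12 that passed were without si-lncMGPF replicate 1. Normexp ran on median spot signals. The promoter share of ACGTG was 26.2% in the first 150 bases and 35.7% in the last 150. The limit of these data is 3 arrays a group with 1 si-lncMGPF array on the slide of the controls. Dim elements are measured less well on slide 2, where negative controls read higher before background removal.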
